A study of Mus musculus with 8 samples.

Results

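Basement membranes are thin sheets of matrix under epithelial and mesothelial cells and around muscle, fat and vessel cells. Laminins, trimers of an alpha, a beta and a gamma chain, polymerise at the cell surface, and nidogens and heparan sulphate proteoglycans link them to the network of collagen IV. Cells hold on to this sheet through integrins, which are pairs of an alpha and a beta chain, and through dystroglycan, and the alpha chain largely sets which matrix protein an integrin binds. The 44 mouse genes described here, 20 of basement membrane proteins with dystroglycan and 24 of integrin chains, were taken as a named list and found by Entrez identifier, all 44 of them among the 36528 identifiers of the deposited tables.

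Poly(A) RNA of mesothelial cells from mouse omentum, the lining cells of this fatty fold of the abdomen, was sequenced. There were 4 BAP1 KO libraries and 4 WT libraries; BAP1 is a nuclear deubiquitinase that acts on histone H2A. The labels give no allele, Cre driver, age, sex or culture time, and do not say that libraries stem from separate mice or cultures, so the p-values rest on a spread that may be technical. Libraries held 69.5 to 82.1 M counts in BAP1 KO and 67.1 to 84.9 M in WT. Bap1 itself, whose deleted exons the labels do not name, stood at 54.0, 53.1, 52.0 and 53.7 CPM in the BAP1 KO libraries, against 63.1, 62.6, 62.9 and 64.2 CPM in the WT libraries, lower in every BAP1 KO library (log2 fold change -0.25 ± 0.03, edgeR adjusted p = 2.1e-09).

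The RNA held transcripts of several cell types. Of 15 mesothelial markers all were tested, 7 rose, 6 fell and 2 did not pass, and their summed level was 1376 to 1387 CPM in BAP1 KO libraries and 1291 to 1323 CPM in WT libraries (CPM, counts per M of scaled total). Upk3b stood at 464 CPM in BAP1 KO and 462 CPM in WT, and Msln at 3.06 CPM in BAP1 KO and 6.95 CPM in WT. Past 1.5-fold, 2 mesothelial markers were higher, Muc16 (log2 fold change 0.93 ± 0.06) and Cldn15 (0.81 ± 0.03). The 3 that were lower past it were Krt8 (-1.56 ± 0.13), Krt18 (-1.38 ± 0.07) and Msln (-1.19 ± 0.07). Of 16 macrophage and leukocyte markers 9 rose, 6 fell and 1 did not pass; they summed to 17906 to 18552 CPM in BAP1 KO and 15251 to 15587 CPM in WT, and without Lyz2 to 7212 to 7433 CPM in BAP1 KO and 7025 to 7261 CPM in WT. Endothelial markers were low, at 18.5 to 19.7 CPM summed over 8 genes in BAP1 KO and 29.1 to 30.0 CPM in WT, with Cldn5 at 0 CPM in BAP1 KO and 0.00639 CPM in WT. Most of that sum was Kdr (12.1 CPM in BAP1 KO and 18.4 CPM in WT) and Vwf (5.8 CPM in BAP1 KO and 9.41 CPM in WT). Of the 5 endothelial markers tested, 4 fell and Pecam1 was not called. Smooth muscle and pericyte markers summed to 12489 to 12683 CPM in BAP1 KO and 12263 to 12744 CPM in WT over 9 genes, and fibroblast markers to 625 to 649 CPM in BAP1 KO and 765 to 786 CPM in WT over 5 genes. Most of the fibroblast sum was Pdgfra (555 CPM in BAP1 KO and 594 CPM in WT, log2 fold change -0.10 ± 0.02). Of the other 4 fibroblast markers, Cd34 (-1.23 ± 0.04), Col14a1 (-1.19 ± 0.03) and Dpt (-1.05 ± 0.06) fell past 1.5-fold, and Pi16 was not called; the median over the 5 was -1.05. Adipocyte markers, 5 genes, summed to 44.6 to 47.1 CPM in BAP1 KO and 28.0 to 31.5 CPM in WT, and 10 lymphocyte markers to 4.21 to 4.85 CPM in BAP1 KO and 6.24 to 6.60 CPM in WT. Of the 6 lymphocyte markers tested, 2 rose, 1 fell and 3 were not called. The lower lymphocyte sum lay in the 1 that fell, Cd4 (1.14 CPM in BAP1 KO and 3.27 CPM in WT). Cd2 (0.94 ± 0.35) and Cd79a (0.63 ± 0.17) rose at low levels. In bulk RNA, fewer cells of a type and less RNA per cell cannot be told apart.

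Integrin chains mostly fell in BAP1 KO cells, while basement membrane genes split evenly between rises and falls. The largest changes of the list were falls of Frem1, Itga2, Itgb3 and Itga6, and the rises past 1.5-fold were those of Lamb3, Lamc3 and Itga7. Of the 44 genes, 41 passed the filter on low counts and were tested; Grip1, Itgb6 and Itgae did not. Of the 41, 13 rose, 23 fell and 5 did not pass (edgeR quasi-likelihood test, adjusted p below 0.05), so 87.8% were called, against 61.1% of all 16929 genes tested, of which 29.0% were higher and 32.1% lower. The 41 genes were also more abundant, with a median of 73.6 CPM against 15.5 CPM over all tested genes, and the part of abundance in that share was not tested. Their median log2 fold change was -0.15, and that of all tested genes 0.00. Among the 19 tested genes of the basement membrane group 8 rose, 8 fell and 3 did not pass (median 0.02); among the 22 tested integrin chains 5 rose, 15 fell and 2 did not pass (median -0.16).

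Of the 36 called genes, 25 had an estimate below 1.5-fold, as had 75.8% of all called genes. The other 11 were 3 higher and 8 lower. Against a threshold of 1.5-fold (edgeR's test relative to a fold change, adjusted over all genes), 3 were higher and 7 lower, 24.4% of those tested, beside 8.18% of all genes tested, 2.19% higher and 5.99% lower. The libraries of the genotypes did not overlap for 33 of the 41 genes, 12 with BAP1 KO above WT and 21 below; over all tested genes this share was 53.8%, with 25.1% above and 28.7% below. For 14 of the 44 genes an exon overlaps that of another gene in GENCODE. The kit does not mark the strand, so reads in such an overlap cannot be told apart by strand. The values of these 14 genes are uncertain to that extent. These are Lama2, Lama3, Lamc3, Nid1, Nid2, Fras1, Itga7, Itgb4, Itga1, Itga10, Itga8, Itgav, Itga4 and Itgam.

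**Figure D1:**
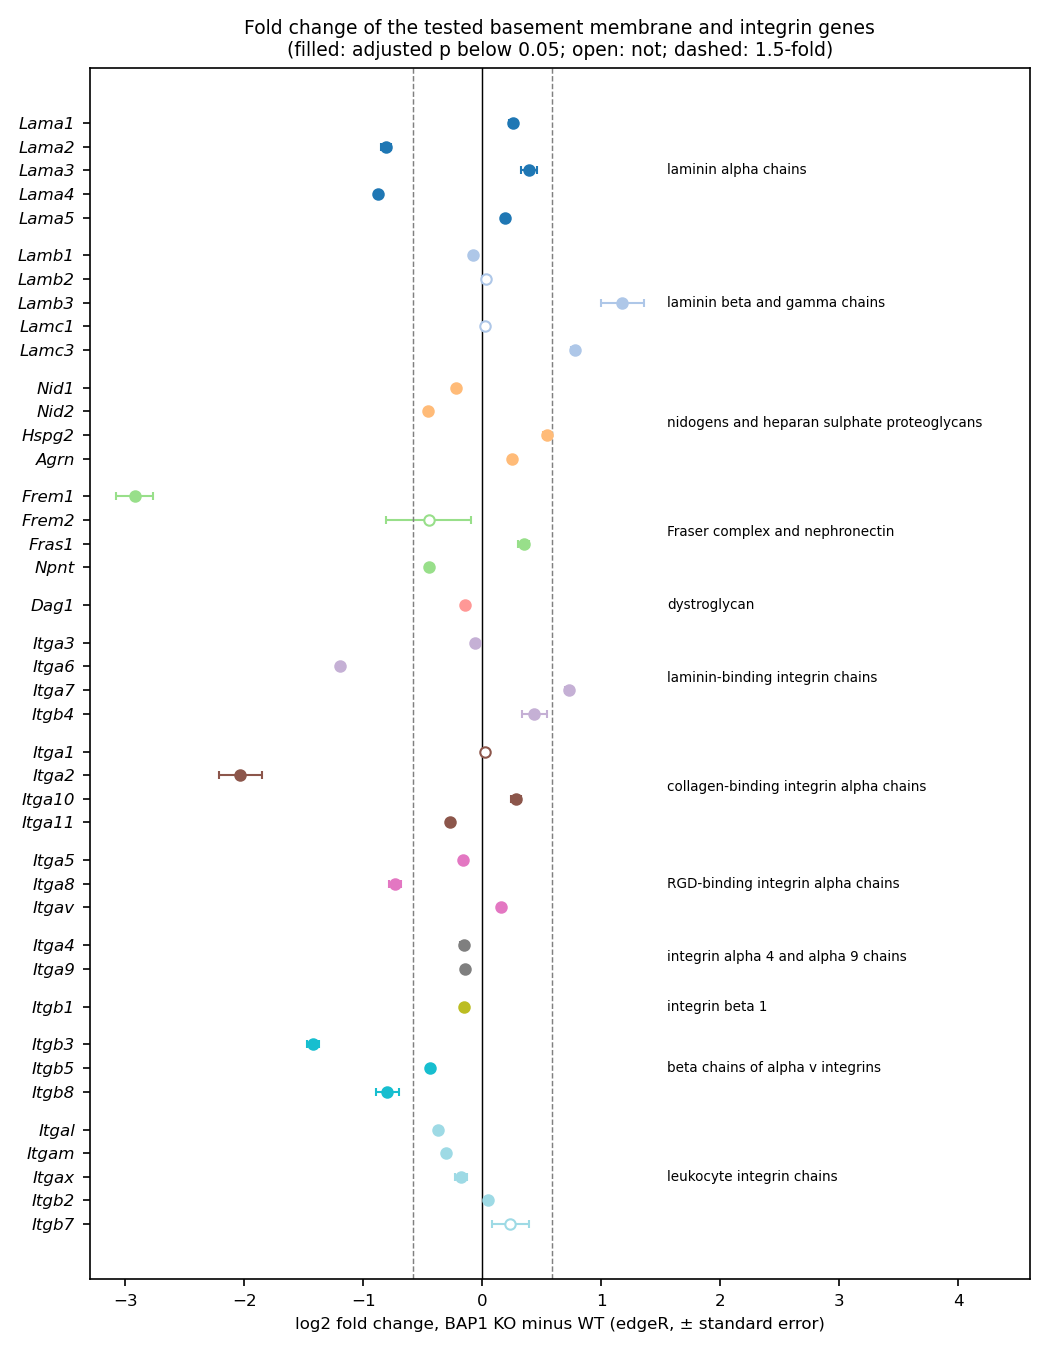
Log2 fold change (BAP1 KO minus WT, horizontal axis) with its standard error for the 41 tested genes, in rows grouped by role; filled points passed the edgeR test, open points did not, and dashed lines mark 1.5-fold. Frem1 at -2.92 and Itga2 at -2.03 lie farthest to the left, Lamb3 at 1.17 farthest to the right, and most integrin chains lie left of 0.

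All 5 laminin alpha chains changed, in opposite directions. Lama4 and Lama2 fell past 1.5-fold, and Lama5, Lama1 and Lama3 rose by less. Lama4 (Entrez 16775; chromosome 10, 38965515 to 39110188 on GRCm38), the alpha 4 chain of vascular and adipose basement membranes, stood at 58.1, 59.0, 58.4 and 57.4 CPM in the BAP1 KO libraries, against 106, 109, 108 and 104 CPM in the WT libraries. The ranges lie far apart; the log2 estimate was -0.87 ± 0.03 (SE; edgeR adjusted p = 2.9e-23). Lama2 (Entrez 16773; chromosome 10, 26981285 to 27617191), the chain of muscle and nerve basement membranes that is lost in a congenital muscular dystrophy, was at 14.1, 14.2, 14.3 and 14.3 CPM in the BAP1 KO libraries, against 25.9, 24.8, 24.2 and 25.0 CPM in the WT libraries. The BAP1 KO libraries were all low and nearly equal, and the log2 estimate was -0.81 ± 0.04 (edgeR adjusted p = 1.1e-17). Its exons share 631 bp with an antisense gene. Both falls passed the 1.5-fold test under all 15 alternatives, each of the 8 libraries left out among them.

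Lama5, the widely expressed alpha chain of mature epithelial basement membranes, averaged 152 ± 5 CPM in BAP1 KO and 133 ± 6.4 CPM in WT (SD, n = 4 each), a log2 fold change of 0.19 ± 0.03. Lama1, the chain of the first embryonic basement membranes, averaged 32.3 ± 1.4 CPM in BAP1 KO and 27.0 ± 0.78 CPM in WT (0.26 ± 0.04). Lama3, a chain of the skin's anchoring laminin, was low, at 6.28 to 7.42 CPM in BAP1 KO and 4.88 to 5.62 CPM in WT (0.39 ± 0.07). For each of the 3 the groups did not overlap.

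Per length, the order of the leading alpha chains differed between the genotypes. In the authors' RPKM, which divide counts by gene length, Lama5 led in BAP1 KO with 13.0 ± 0.45 RPKM before Lama4 with 9.59 ± 0.1 RPKM, whereas Lama4 led in WT with 17.4 ± 0.3 RPKM before Lama5 with 11.3 ± 0.55 RPKM (SD, n = 4 each). Lama4 made up 34.4 ± 0.74% of the summed alpha chain RPKM in BAP1 KO and 50.7 ± 1.3% in WT, and Lama5 46.6 ± 1.1% in BAP1 KO and 32.8 ± 1.1% in WT. No BAP1 KO library overlapped a WT library in either share. Lama1, Lama2 and Lama3 followed in that order in BAP1 KO and in WT. The summed alpha chain level was 27.9 ± 0.41 RPKM in BAP1 KO and 34.4 ± 0.54 RPKM in WT. Endothelial and fibroblast marker sums, given above, were also lower in BAP1 KO and the adipocyte sum was higher. Of the 5 fibroblast markers, Cd34, Col14a1 and Dpt fell by 1.05 to 1.23 on the log2 scale. Pdgfra, most of the fibroblast sum, changed by only -0.10 ± 0.02, and Pi16 was not called. The part of these markers in the values of Lama4 and Lama2 was not tested.

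The partner chains that most laminins share hardly moved. Lamb1, the main beta chain, stood at 427, 415, 424 and 415 CPM in the BAP1 KO libraries, against 439.6, 446, 439 and 449 CPM in the WT libraries. The groups did not overlap, but the log2 fold change was only -0.08 ± 0.02 (edgeR adjusted p = 0.0012). Lamc1, the gamma chain of nearly all laminins, averaged 419 ± 5.6 CPM in BAP1 KO and 413 ± 10 CPM in WT (log2 fold change 0.02 ± 0.02, edgeR adjusted p = 0.44). Lamb2, the beta chain of the kidney filter and the neuromuscular junction, was likewise not called, at 118 to 126 CPM in BAP1 KO and 114 to 129 CPM in WT (edgeR adjusted p = 0.46). For Lamb2 and Lamc1 the libraries of the genotypes overlapped.

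Lamc3 and Lamb3, the less common gamma and beta chains, rose. Lamc3 (Entrez 23928; chromosome 2, 31887281 to 31949083) stood at 55.0, 50.6, 53.3 and 52.7 CPM in the BAP1 KO libraries, against 30.7, 30.3, 30.7 and 32.0 CPM in the WT libraries. Every BAP1 KO library lay above every WT library, with a log2 fold change of 0.77 ± 0.03 (edgeR adjusted p = 2.7e-19). Its exons share 382 bp with an antisense gene. Its share of the summed gamma chain RPKM was 14.0 ± 0.43% in BAP1 KO and 8.78 ± 0.23% in WT. Lamb3, a beta chain of the skin's anchoring laminin, rose by 1.17 ± 0.18 on the log2 scale, but on few reads, with 53, 73, 81 and 68 reads in the BAP1 KO libraries and 25, 41, 26 and 30 reads in the WT libraries. Its rise past 1.5-fold was lost with DESeq2 (adjusted p = 0.089), and the filter of more than 1 CPM in 4 libraries removed it.

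**Figure D2:**
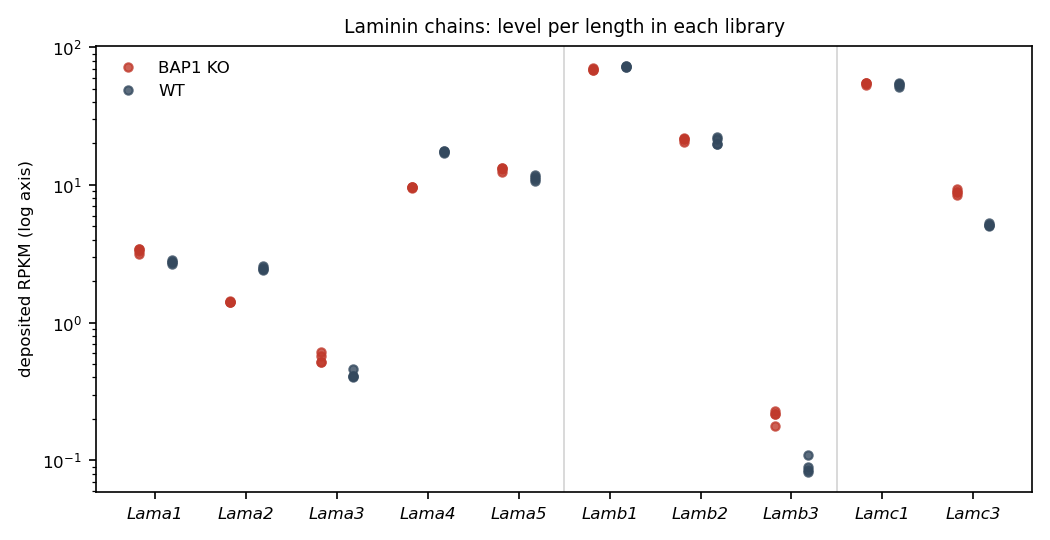
Deposited RPKM (vertical log axis) of the 10 laminin chains in each library, with BAP1 KO points left of WT points for each gene. Lama4 and Lama2 are lower and Lamc3 and Lamb3 higher in BAP1 KO, Lama5 lies above Lama4 in BAP1 KO and below it in WT, and Lamb1, Lamb2 and Lamc1 sit at nearly the same level in both.

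Among the proteins that tie laminin to collagen IV, both nidogens fell and both heparan sulphate proteoglycans rose. Nid1, which bridges laminin and collagen IV, stood at 1161, 1162, 1202 and 1178 CPM in the BAP1 KO libraries, against 1372, 1384, 1358 and 1366 CPM in the WT libraries. All BAP1 KO libraries were lower, with a log2 fold change of -0.22 ± 0.02 (edgeR adjusted p = 1.2e-11). Its relative Nid2 averaged 603 ± 4.5 CPM in BAP1 KO and 829.5 ± 17 CPM in WT (SD, n = 4 each), a log2 fold change of -0.46 ± 0.02. Exons of Nid1 share 143 bp with an antisense gene, and those of Nid2 share 437 bp with Rtraf on the other strand.

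Hspg2 encodes perlecan, a large proteoglycan that binds growth factors as well as laminin and nidogen. Hspg2 (Entrez 15530; chromosome 4, 137468751 to 137570630) stood at 1632, 1536, 1679 and 1636 CPM in the BAP1 KO libraries, against 1094, 1144, 1049 and 1161 CPM in the WT libraries. The groups did not overlap. Hspg2 rose by 0.54 ± 0.03 on the log2 scale (edgeR adjusted p = 4.8e-11), which did not pass the 1.5-fold test. Agrn, agrin, the proteoglycan known for gathering acetylcholine receptors at the nerve-muscle junction, averaged 161 ± 3 CPM in BAP1 KO and 135 ± 4.5 CPM in WT, a log2 fold change of 0.25 ± 0.02. Per length, the order by RPKM was Nid1, Nid2, Hspg2 and Agrn in both genotypes. The gap between Nid2 and Hspg2 was 123 ± 1.1 against 107 ± 4.1 RPKM in BAP1 KO, and 168 ± 3.3 against 72.6 ± 3.3 RPKM in WT. In WT the level of Hspg2 did not differ from that of Lamb1 (72.4 ± 0.79 RPKM) beyond their spread, while in BAP1 KO every library had more Hspg2 than Lamb1.

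The Fraser proteins and nephronectin are further components of basement membranes. Frem1, which with Fras1 and Frem2 forms a complex that holds embryonic skin to the dermis, had the largest fall of the 41 genes. Frem1 (Entrez 329872; chromosome 4, 82897920 to 83052506) stood at 0.332, 0.552, 0.307 and 0.248 CPM in the BAP1 KO libraries, against 2.85, 2.88, 2.54 and 2.71 CPM in the WT libraries. It was low in both genotypes, with 23, 43, 25 and 18 reads in the BAP1 KO libraries and 193, 245, 184 and 209 reads in the WT libraries, and no library overlapped. The log2 estimate for Frem1 was -2.92 ± 0.16 (edgeR adjusted p = 1.6e-16), and -3.21 to -2.78 over the alternatives. Fras1 moved the other way, at 13.6 to 15.3 CPM in BAP1 KO and 10.8 to 12.4 CPM in WT (0.35 ± 0.05), and Frem2, with 5 to 22 reads per library, was not called (-0.45 ± 0.36, edgeR adjusted p = 0.29). Grip1, an adaptor that delivers the Fraser proteins to the cell surface, had 2 to 14 reads and was not tested.

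Npnt encodes nephronectin, a ligand of the integrin that pairs alpha 8 with beta 1, known from kidney development. Npnt (Entrez 114249; chromosome 3, 132881745 to 132950291) stood at 37.6, 37.6, 38.1 and 36.2 CPM in the BAP1 KO libraries, against 50.1, 51.3, 49.9 and 52.7 CPM in the WT libraries. All BAP1 KO libraries were lower (log2 fold change -0.45 ± 0.03, edgeR adjusted p = 5.3e-14). Its receptor chain Itga8 (Entrez 241226; chromosome 2, 12106632 to 12301985) was at 8.65, 8.16, 8.53 and 9.38 CPM in the BAP1 KO libraries, against 14.5, 14.2, 14.1 and 14.8 CPM in the WT libraries. Again every BAP1 KO library was lower, with a log2 fold change of -0.73 ± 0.05 (edgeR adjusted p = 6e-14). Exons of Itga8 share 372 bp with an antisense gene. The call of Itga8 past 1.5-fold (adjusted p = 0.0096) was lost with DESeq2 (adjusted p = 0.19) and without BAP1 KO replicate 2 (adjusted p = 0.056).

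Dag1 encodes dystroglycan, whose sugar chain binds laminin, agrin and perlecan. It stood at 434, 427, 432 and 432 CPM in the BAP1 KO libraries, against 472, 479.5, 473 and 479 CPM in the WT libraries. The groups did not overlap, yet the fall was small, with a log2 fold change of -0.14 ± 0.02 (edgeR adjusted p = 1.8e-07). Of 21 other genes of the dystroglycan complex and of its sugar chain, all tested, 7 were higher, 9 lower and 5 not called (median 0.02). This was 76.2% called, against 61.1% of all tested genes. Past 1.5-fold only 1 was called, which was lower (4.76%, beside 8.18% of all tested genes). B4gat1, which primes that chain, fell, with a log2 fold change of -0.85 ± 0.03 and means of 23.2 CPM in BAP1 KO and 41.8 CPM in WT. Utrn, utrophin, which anchors dystroglycan to actin, rose by 0.38 ± 0.02, and Sgcd, a sarcoglycan, fell (-0.67 ± 0.06).

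**Figure D3:**
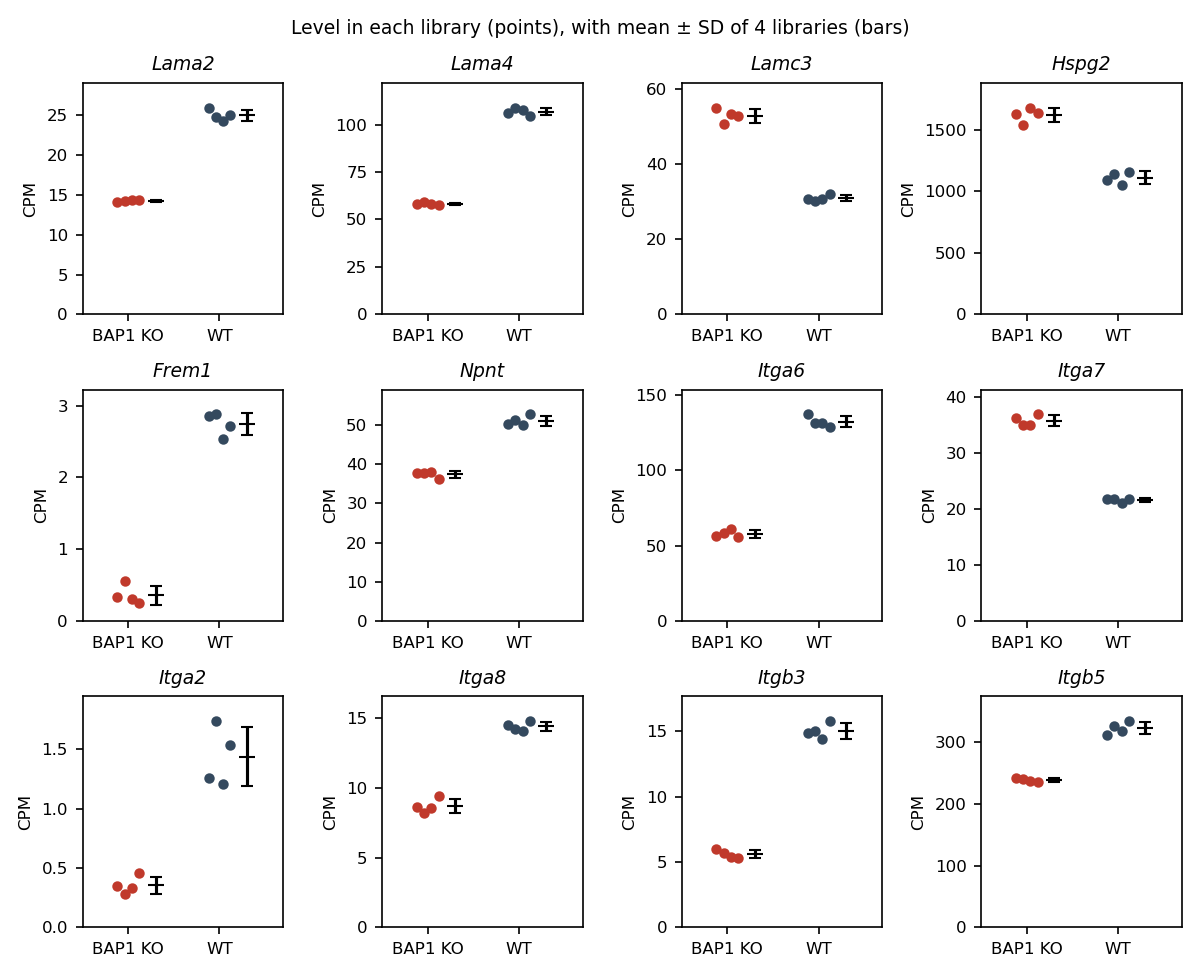
Level in CPM (vertical axes, from 0) of 12 genes in each library, BAP1 KO left and WT right; points are libraries and the bar beside them is the mean with its SD. Lamc3, Hspg2 and Itga7 are higher in all 4 BAP1 KO libraries, the other 9 genes are lower in all 4, and in no panel do the genotypes overlap.

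Other basement membrane components, 21 genes all tested, held 7 that rose and 11 that fell, while 3 were not called. The median log2 fold change was -0.25. This was 85.7% called, against 61.1% of all tested genes, of which 29.0% were higher and 32.1% lower. Past 1.5-fold, 2 of the 21 were lower and 0 higher (9.52%), near the 8.18% of all tested genes. Col4a1, a chain of the main collagen IV, rose by 0.43 ± 0.02, with means of 3256 CPM in BAP1 KO and 2409.7 CPM in WT. Col4a2, its partner in the same molecule, rose by 0.45 ± 0.02. Of the other collagen IV chains, Col4a5 rose by 0.10 ± 0.03 and Col4a6 was not called. Col4a4 fell past 1.5-fold (-1.39 ± 0.28) and Col4a3 fell (-0.82 ± 0.29), on 9 to 42 and 8 to 37 reads per library. Apart from Col4a1, these chains were added after their values were seen. Col15a1, a collagen that joins the sheet to the matrix below, fell (-1.09 ± 0.03), with means of 57.6 CPM in BAP1 KO and 123 CPM in WT. Sparc, a collagen-binding protein, and Tinagl1, a secreted matrix protein, fell as well (-0.33 ± 0.02 and -0.59 ± 0.03).

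The laminin-binding integrin chains split. Itga6, which pairs with beta 1 or beta 4 and is a receptor for most laminins, fell past 1.5-fold, and Itga7 rose past it. Itga6 (Entrez 16403; chromosome 2, 71786886 to 71858427) stood at 56.3, 58.0, 60.8 and 55.5 CPM in the BAP1 KO libraries, against 137, 131, 132 and 128 CPM in the WT libraries. The log2 fold change was -1.19 ± 0.03, with the smallest adjusted p of the 41 genes (edgeR, 2.2e-25). The summed level of the 8 endothelial markers was lower too, at 3.02 to 3.27 RPKM in BAP1 KO and 4.75 to 4.94 RPKM in WT. Most of this sum was Kdr and Vwf, and Pecam1 was not called. The part of these and of the fibroblast markers, 3 of 5 lower past 1.5-fold, in the fall of Itga6 was not tested. Itga7 (Entrez 16404; chromosome 10, 128933421 to 128958286), the laminin receptor chain of muscle, was at 36.2, 35.0, 34.9 and 36.9 CPM in the BAP1 KO libraries, against 21.7, 21.8, 21.0 and 21.7 CPM in the WT libraries. It was higher in every BAP1 KO library, with a log2 fold change of 0.73 ± 0.03 (edgeR adjusted p = 7.1e-18). Of 9 markers of smooth muscle and pericytes, 3 were higher, 3 lower and 3 not called, and their part in the rise of Itga7 was not tested.

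Itga3, a receptor chain for laminins with alpha 3 or alpha 5, was the most abundant of the group per length. It stood at 223, 218, 222 and 223 CPM in the BAP1 KO libraries, against 228, 234, 226 and 236 CPM in the WT libraries. Itga3 fell by little, -0.06 ± 0.02 on the log2 scale (edgeR adjusted p = 0.02), and this call was lost with RLE factors and without BAP1 KO replicate 2, WT replicate 2 or WT replicate 4, with adjusted p up to 0.069. Itgb4, the beta chain of hemidesmosomes, which pairs with alpha 6, was low and rose, at 2.48 to 2.91 CPM in BAP1 KO and 1.60 to 2.10 CPM in WT (0.44 ± 0.10); 537 bp of its exons lie antisense to another gene. Per length, Itga6 was 9.37 ± 0.38 RPKM in BAP1 KO and 21.3 ± 0.58 RPKM in WT, and Itga7 6.31 ± 0.17 RPKM in BAP1 KO and 3.77 ± 0.064 RPKM in WT. Itga6 therefore stayed above Itga7 in every library, by a smaller distance in BAP1 KO.

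Collagen-binding integrins pair an alpha 1, 2, 10 or 11 chain with beta 1. Itga11, the fibroblast receptor chain for fibrillar collagen, was the most abundant per length and stood at 188, 190.3, 193 and 189 CPM in the BAP1 KO libraries, against 226, 232, 225 and 237 CPM in the WT libraries. It fell in all BAP1 KO libraries (-0.28 ± 0.02, edgeR adjusted p = 2.9e-12). Itga2, the collagen receptor chain of platelets and epithelia, was at 0.347, 0.282, 0.331 and 0.455 CPM in the BAP1 KO libraries, against 1.26, 1.74, 1.21 and 1.54 CPM in the WT libraries. It had 24, 22, 27 and 33 reads in the BAP1 KO libraries and 85, 148, 88 and 119 reads in the WT libraries. It fell by far in every BAP1 KO library, at -2.03 ± 0.18 on the log2 scale (edgeR adjusted p = 2.7e-11). Itga1, its neighbour, was not called, at 112 to 119 CPM in BAP1 KO and 111 to 117 CPM in WT (0.02 ± 0.03, edgeR adjusted p = 0.53). Itga10, known from cartilage, rose by 0.28 ± 0.04, with means of 24.4 CPM in BAP1 KO and 20.1 CPM in WT; 1739 bp of its exons lie in another gene of the same strand.

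Itga1 and Itga2 lie 26.0 kb apart on chromosome 13, Itga2 at 114833081 to 114932100 and Itga1 at 114958079 to 115101964, and are read in the same direction. The 250 bases before the first transcript start listed for each gene in the RefSeq table on GRCm38.p6 are shown because one neighbour fell strongly and the other was not called. Below them stand those of Hspg2 and Agrn, the proteoglycans that rose together; capitals mark GC boxes, GGGCGG on either strand, the letters bound by SP1-type factors.
Itga1 (chr13:115101965-115102214, minus strand): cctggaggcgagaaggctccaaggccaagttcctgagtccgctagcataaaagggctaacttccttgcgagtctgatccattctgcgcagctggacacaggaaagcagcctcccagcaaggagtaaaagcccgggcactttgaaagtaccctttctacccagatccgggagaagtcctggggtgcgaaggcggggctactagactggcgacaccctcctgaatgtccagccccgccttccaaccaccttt
Itga2 (chr13:114932101-114932350, minus strand): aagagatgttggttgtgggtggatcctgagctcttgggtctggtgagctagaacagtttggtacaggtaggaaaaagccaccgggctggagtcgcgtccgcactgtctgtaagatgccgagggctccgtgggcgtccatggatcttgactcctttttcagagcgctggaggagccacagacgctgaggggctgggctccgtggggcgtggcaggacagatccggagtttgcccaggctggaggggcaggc
Hspg2 (chr4:137468553-137468802, plus strand): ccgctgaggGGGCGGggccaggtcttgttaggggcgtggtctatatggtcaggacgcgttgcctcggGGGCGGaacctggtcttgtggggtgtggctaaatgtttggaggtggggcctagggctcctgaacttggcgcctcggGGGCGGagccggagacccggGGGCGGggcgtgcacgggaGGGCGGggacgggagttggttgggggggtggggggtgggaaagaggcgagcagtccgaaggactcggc
Agrn (chr4:156197489-156197738, minus strand): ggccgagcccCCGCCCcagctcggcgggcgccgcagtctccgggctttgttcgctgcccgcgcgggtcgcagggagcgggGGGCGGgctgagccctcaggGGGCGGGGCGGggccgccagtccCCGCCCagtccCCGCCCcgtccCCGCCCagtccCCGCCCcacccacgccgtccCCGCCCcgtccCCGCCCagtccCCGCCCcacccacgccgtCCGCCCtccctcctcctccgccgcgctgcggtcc
The GC box was found 5 times in the window of Hspg2 and 12 times in that of Agrn, where 2 matches overlap. It was not found before Itga1 or Itga2. The windows of Hspg2 and Agrn reach into the gene as RefSeq spans it. Of the 30 genes of the list with an entry in the RefSeq table, 13 held it (43.3%), against 32.9% of all 27025 promoter windows of that length. The 30 windows were also richer in G and C, with a median of 60.2% against 52.0% over all windows. Their median number of CG pairs was 11.5 against 6, and the part of this base content was not tested. Among the 13, Hspg2, Agrn and Lama5 rose. The others fell: Dag1, Itga3, Itga4, Itga5, Itgam, Itgb1, Itgb5, Lamb1, Nid1 and Npnt. Falls were also the more frequent among all 41 tested genes of the list, with 13 higher and 23 lower. Over all tested genes of the series, 29.0% were higher and 32.1% lower. A link between the box and the direction of change was not tested. The letters AAGATGG, read by YY1, and GTAAACA, read by forkhead factors, were searched on both strands too, since BAP1 is known to bind YY1 and the forkhead proteins FOXK1 and FOXK2. Neither was found in the 30 windows, where all windows gave 4.53% for YY1 and 3.09% for the forkhead letters. Some of the 30 windows, such as those of Grip1, Itga9, Frem1 and Lamb3, lie inside the gene. Windows before other starts of a gene were not searched.

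Integrin chains that bind the RGD sequence of fibronectin and related proteins included the leading alpha chain, Itga5. Itga5, the classical fibronectin receptor chain, stood at 973, 969, 973 and 965 CPM in the BAP1 KO libraries, against 1088, 1092, 1061 and 1099.8 CPM in the WT libraries. It fell slightly in every BAP1 KO library (-0.16 ± 0.02, edgeR adjusted p = 8.6e-09) and made up 41.0 ± 0.18% of the summed alpha chain RPKM in BAP1 KO and 40.6 ± 0.23% in WT. Itgav, the alpha v chain, which binds vitronectin and latent TGF-beta, averaged 469 ± 9.9 CPM in BAP1 KO and 421 ± 13 CPM in WT, a rise of 0.16 ± 0.02 (edgeR adjusted p = 4.3e-07); 634 bp of its exons lie antisense to another gene. Itga4 and Itga9, related receptor chains, fell by small amounts. Itga9 stood at 54.0, 55.5, 57.5 and 55.9 CPM in the BAP1 KO libraries, against 62.7, 63.2, 60.9 and 60.0 CPM in the WT libraries. Its log2 fold change was -0.15 ± 0.03, and that of Itga4 was -0.16 ± 0.03, with overlapping libraries for Itga4, whose exons share 1124 bp with Cerkl on the opposite strand.

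While Itgav rose, the beta chains that pair with alpha v fell. Itgb3 (Entrez 16416; chromosome 11, 104608000 to 104670476), also the beta chain of the platelet fibrinogen receptor, stood at 5.98, 5.67, 5.41 and 5.34 CPM in the BAP1 KO libraries, against 14.9, 15.0, 14.4 and 15.8 CPM in the WT libraries. The BAP1 KO libraries were all low, with a log2 fold change of -1.42 ± 0.05 (edgeR adjusted p = 2.3e-20). Itgb5, the most abundant of this group, was at 242, 240.5, 236 and 234 CPM in the BAP1 KO libraries, against 310.2, 326, 318 and 334 CPM in the WT libraries. It was lower in every BAP1 KO library (-0.44 ± 0.02, edgeR adjusted p = 1.1e-16). Itgb8, which with alpha v releases active TGF-beta, was at 2.25, 2.12, 2.27 and 2.72 CPM in the BAP1 KO libraries, against 4.81, 3.99, 3.72 and 3.76 CPM in the WT libraries. Its fall was -0.80 ± 0.10 on the log2 scale (edgeR adjusted p = 1.6e-08); it missed the 1.5-fold test with adjusted p = 0.052, and passed it with upper quartile factors (0.044), library totals (0.036) and without BAP1 KO replicate 4 (0.013), WT replicate 3 (0.032) or WT replicate 4 (0.028). The 15 alternatives gave adjusted p between 0.013 and 0.73. Itgb6, an epithelial chain, had 0 to 2 reads and was not tested.

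Itgb1, the beta chain shared by the largest number of integrins, stood at 1754, 1823, 1838 and 1775 CPM in the BAP1 KO libraries, against 2048, 2002, 2008 and 1954 CPM in the WT libraries. The groups did not overlap, with a log2 fold change of -0.16 ± 0.02 (edgeR adjusted p = 5.5e-08). Per length it was the leading beta chain in both genotypes, at 427 ± 8.6 RPKM in BAP1 KO and 472 ± 9 RPKM in WT. Its share of the summed beta chain RPKM was 63.2 ± 0.72% in BAP1 KO and 63.8 ± 0.92% in WT, which overlap. The summed level was 539.8 ± 3.6 RPKM in BAP1 KO and 604.3 ± 7.9 RPKM in WT for the alpha chains, and 674.9 ± 6.3 RPKM in BAP1 KO and 739.0 ± 4.3 RPKM in WT for the beta chains.

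**Figure D4:**
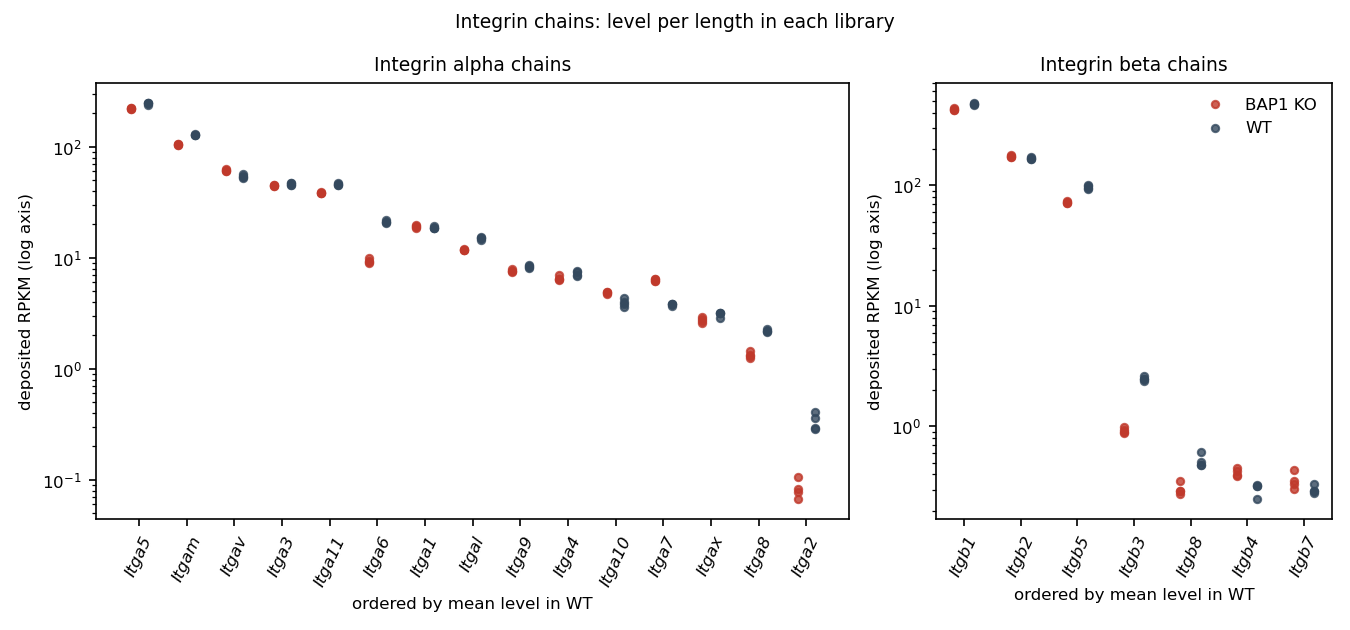
Deposited RPKM (vertical log axis) of the tested integrin alpha chains (left panel) and beta chains (right panel) in each library, with BAP1 KO points left of WT points and genes ordered by their mean in WT. Itga5 and Itgb1 are the highest chains in both genotypes; Itga6, Itga8, Itga2, Itgb3 and Itgb8 are lower and Itga7 is higher in BAP1 KO.

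The leukocyte integrins were a large part of the integrin RNA in these cells labelled as mesothelial. Itgam, the CD11b chain of macrophages, was the second alpha chain per length, at 105 ± 1 RPKM in BAP1 KO and 128 ± 1.6 RPKM in WT, and Itgb2, its partner CD18, the second beta chain, at 174 ± 2.4 RPKM in BAP1 KO and 167 ± 2.7 RPKM in WT. The chains moved differently. Itgb2 stood at 521, 509, 512 and 520.5 CPM in the BAP1 KO libraries, against 494, 500.2, 491 and 509.6 CPM in the WT libraries. The libraries overlapped, and the rise of 0.05 ± 0.02 (edgeR adjusted p = 0.037) was lost under 8 of 15 alternatives, with adjusted p up to 0.14: upper quartile factors, library totals, no filter, and without BAP1 KO replicate 1 or 4 or WT replicate 1, 2 or 3. Itgam averaged 493 ± 4.4 CPM in BAP1 KO and 608 ± 7.1 CPM in WT and fell (-0.30 ± 0.02); its exons share 3450 bp with a predicted gene of the same strand. Itgal, the CD11a chain of leukocytes, fell too, at 63.6 to 65.4 CPM in BAP1 KO and 80.2 to 85.1 CPM in WT (-0.37 ± 0.03).

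Itgax, the CD11c chain of dendritic cells and some macrophages, fell slightly, at 10.9 to 12.4 CPM in BAP1 KO and 12.1 to 13.6 CPM in WT (-0.18 ± 0.05), with overlapping libraries. Itgb7, a lymphocyte chain, was not called (0.24 ± 0.16, edgeR adjusted p = 0.19), and Itgae, its partner, had 0 to 7 reads and was not tested. The 16 macrophage and leukocyte markers moved both ways. The 6 that fell were Cd14 (-0.99 ± 0.02), Coro1a (-0.89 ± 0.03), Fcgr1 (-0.45 ± 0.03), Ptprc (-0.37 ± 0.03), Cx3cr1 (-0.22 ± 0.05) and C1qb (-0.07 ± 0.02). The 9 that rose ran from 0.05 ± 0.02 for Csf1r to 0.46 ± 0.02 for Mertk. The sum over all 16 was higher in every BAP1 KO library than in WT; without Lyz2 the sums of the genotypes overlapped, as given above. The part of cell number in the changes of leukocyte integrins was not tested.

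Most genes in a list of integrin adaptors, kinases and related proteins rose, by small amounts, unlike most integrin chains. Of 28 genes of integrin adaptors and kinases, 27 were tested: 18 were higher, 4 lower and 5 not called, and the median log2 fold change was 0.12. Over all tested genes 29.0% were higher and 32.1% lower. Tns3, a tensin of focal adhesions, rose by 0.44 ± 0.02, with means of 829 CPM in BAP1 KO and 609.5 CPM in WT. Tln2, a talin that activates integrins, rose by 0.64 ± 0.03, and Cd151, a tetraspanin that binds laminin-binding integrins, by 0.34 ± 0.02. The 4 that fell were Tns1, another tensin (-0.32 ± 0.02), Vcl (-0.24 ± 0.02), Zyx (-0.15 ± 0.02) and Parvb (-0.07 ± 0.03). The difference between this list and the integrin chains was not tested.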

How the data were processed

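RNA was measured in 8 libraries, 4 BAP1 KO and 4 WT, grouped by the genotype in the labels. Replicate numbers were assigned here in accession order and only name a library. Per the labels' protocols, column-purified RNA went into TruSeq RNA v2 libraries, a kit that does not mark the strand, read as single ends. Per the submitters' processing notes, the reads were processed with GSNAP and GRCm38. The sources used here give no aligner version, annotation or strand setting. The deposited counts are reads aligning uniquely to a gene model, per the file headers, so reads shared with near-identical copies are missing. Per the file headers, the authors' RPKM hold a size factor; they stood in a fixed ratio to the counts in each library apart from gene length, and served for levels between genes.

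Counts were fitted over all genes with edgeR 4.0.16 in R 4.3.3 (quasi-likelihood F test, robust, TMM, filterByExpr), with Benjamini-Hochberg adjustment over 16929 genes and a threshold of 0.05. A second test was against 1.5-fold. Standard errors are log2 fold change over the root of F. Totals were 67.1 to 84.9 M counts per library. Within BAP1 KO and within WT, variance between libraries was 2.39 to 5.32 times that of counting noise by the median over 11827 genes. By the mean over these genes it was 3.12 to 8.18 times. The 11827 genes had to reach a minimum count in every library, so genes with few reads, such as Frem1, are not covered. Each library was taken as 1 replicate, but spread above counting noise does not show that libraries stem from separate mice or cultures. The common coefficient of variation beyond counting noise in edgeR was 0.029, and its source was not tested. Symbols and coordinates are RefSeq's on GRCm38.p6, exon overlaps GENCODE vM21's. The alternatives were RLE, upper quartile or no scaling factors, no filter, a filter of more than 1 CPM in 4 libraries, DESeq2 1.42.0, limma-voom (limma 3.58.1) and each library left out. The genes and lists were chosen with earlier results of these data known. All 44 genes are named; library values are given for those called with at least 1.5-fold and 1 CPM in a genotype and for the highest of each role group, and of the other lists up to 4 genes with the smallest adjusted p. A gene that this rule chose is not reported here. Values of Lama5, Hspg2 and other genes beyond this rule were chosen after they were seen.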

Additional observations from a re-analysis of the deposited data

Results flagged for a closer look

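Single libraries stood apart from the other 3 of their genotype in 5 of the 82 groups of 4 CPM values examined for the 41 genes; chance gives about 1 in 20. The gap to the nearest library, divided by the range of the group, was 0.92 for Lamc1 in BAP1 KO replicate 4 (410.5 CPM, the others 421 to 422 CPM). It was 0.857 for Itga10 in the same library (23.8 CPM, the others 24.6 to 24.8 CPM). In WT replicate 3 it was 0.885 for Itga7 (21.0 CPM, the others 21.7 to 21.8 CPM) and 0.937 for Itgb4 (1.60 CPM, the others 2.07 to 2.10 CPM). In WT replicate 4 it was 0.9 for Itgax (12.1 CPM, the others 13.4 to 13.6 CPM). Each of these libraries was the lowest of its genotype for that gene.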

How the results depend on the processing

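No paired analysis was possible because the labels give no replicate numbers; those used here only name libraries. Each of the 36 called genes kept its direction under all alternatives that tested it; of 612 values for the 41 genes, 600 stayed on their side of the threshold and 12 lost their call, 8 for Itgb2 and 4 for Itga3. The counts of called genes ran from 12 to 13 higher and 22 to 23 lower, also with each library left out. Past 1.5-fold, 2 to 3 genes were higher and 6 to 8 lower: Lamb3, Itga8 and Itgb8 changed sides, as given above. Over all genes, rises ran from 4465 to 5159 and falls from 4878 to 5754, or 4650 to 4883 and 5172 to 5370 with a library left out. The median log2 fold change of all genes moved by less than 0.1 under every scaling, from -0.020 to 0.005. Frem1, Itga2, Lamb3 and Frem2 rest on few reads, and Grip1, Itgb6 and Itgae had too few to test.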
